A study of Mus musculus with 7 samples.

Results

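The AP-1 subunit genes were followed in aortas of *Col3a1*+/G182R mice. They were chosen by name as 10 genes, *Fos*, *Fosb*, *Fosl1*, *Fosl2*, *Jun*, *Junb*, *Jund*, *Atf3*, *Maff* and *Mafk*, found by gene identifier among the 55487 genes of the deposited tables. Of the 15688 genes with enough reads for a test, 9 belonged to this list, and *Fosl1* was too low to be tested.

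*Col3a1*+/G182R mice carry a germline knock-in that replaces a glycine of the type III procollagen chain by arginine on 1 allele, and they model vascular Ehlers-Danlos syndrome. RNA came from aortas of 3 *Col3a1*+/G182R and 4 *Col3a1*+/+ mice labelled as C57BL/6, all males aged 7 weeks, with no treatment named and 1 library per mouse. The line was made from positive embryonic stem cell clones and crossed to C57BL/6J mice, and its selection cassette was removed by FLPe recombinase. The knock-in is present in every cell type. Mice of the study were killed by cervical dislocation or with ketamine and xylazine, and wild-type littermates served in other experiments. Which clone, way of killing or litter applies to each of these 7 mice is not given in the sources used here.

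AP-1 is a dimer of basic leucine zipper proteins. JUN proteins pair with themselves or with FOS and ATF proteins, whereas FOS proteins act mainly with a JUN partner. The dimers bind the TRE or CRE sequences of promoters and enhancers. Many of these genes are immediate early genes, switched on by growth factors, stretch, cytokines or cell stress without new protein synthesis, and in vascular smooth muscle they are known as early responders to injury and angiotensin II. MAFF and MAFK are small MAF proteins, which lack a transactivation domain and pair with each other, with NRF2-type partners or with BACH proteins.

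The start region of *Fos* is shown first because this gene had the largest fold change of those tested in the list, and because its upstream elements are the model of an immediate early promoter. The 100 bases before the RefSeq start of *Fos*, on the plus strand at chr12:85473790-85473889 of GRCm38.p6, hold a CRE core (TGACG) and a TATA box (TATAAA), given in capitals.
Fos promoter: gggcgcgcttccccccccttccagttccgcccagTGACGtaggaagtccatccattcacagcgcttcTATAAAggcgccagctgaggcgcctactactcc

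CREB, ATF and JUN-ATF dimers are known to bind the CRE, so its core was searched for on both strands in the 250 bases before each start. RefSeq promoters were at hand for 9 of the 10 genes, with 11 start sites in all, and not for *Fosl1*. The core lay before at least 1 start of 6 of these 9 genes, and before 7 of the 11 start sites, whereas 17.7% of all 32817 start sites in the table had it. It was found for *Fos*, *Fosb*, *Junb*, *Atf3*, *Maff* and *Mafk*, and not within this window for *Fosl2*, *Jun* and *Jund*. A site of each of the other 5 genes follows, with up to 12 bases on each side, in the direction of transcription and with the match in capitals, which reads CGTCA where it lies on the opposite strand.
Fosb, minus strand, chr7:19310089-19310117: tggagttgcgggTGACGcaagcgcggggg
Junb, minus strand, chr8:84978838-84978866: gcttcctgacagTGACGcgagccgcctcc
Atf3, minus strand, chr1:191183334-191183352: ttaatagcattaCGTCAgc
Maff, plus strand, chr15:79347479-79347510: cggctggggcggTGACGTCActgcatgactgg
Mafk, plus strand, chr5:139791483-139791511: ggggcggggcggTGACGcgcttcgacgcg

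The first base of the match lay 60 bases before the start in *Fosb*, 106 in *Junb*, 29 in *Maff* and 41 in *Mafk*. In *Atf3* it lay 7 bases before a RefSeq start that is inside the gene's span in GENCODE. In *Fos* it lay 66 bases before the start in the stretch above, and a further match lay 129 bases before it. The *Maff* match is a full CRE (TGACGTCA), which holds the core on both strands and was found at 1.55% of all start sites. It precedes only the middle one of the 3 *Maff* start sites in the table. The TRE (TGANTCA) was before none of the 11 start sites, against 6.75% of all. The TATA box was found in *Fos* alone of the 9 genes, against 12.4% of all start sites, and a CCAAT box (CCAAT) in *Jun* and *Junb*, against 33.8%. These are matches of letters within a fixed window, and binding was not measured.

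To ask how much of each subunit the aorta held, levels were compared between genes in TPM, the share of each gene's transcripts in a library corrected for transcript length. *Jund*, which encodes a JUN protein made at a steady level in many tissues, was the highest of the 10 in both genotypes. Its median was 94.5 TPM in *Col3a1*+/G182R and 76.5 TPM in *Col3a1*+/+ aortas. *Jun* and *Mafk* followed, at medians of 37.7 and 35.4 TPM in *Col3a1*+/G182R, and of 29.3 and 31.5 TPM in *Col3a1*+/+. The ranges of these neighbours overlapped within each genotype, and none of them reached the range of *Jund*.

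*Fos* took the fourth place in *Col3a1*+/G182R aortas (median 26.5 TPM) and the seventh in *Col3a1*+/+ aortas (5.33 TPM). In *Col3a1*+/G182R its range overlapped those of *Atf3* (25.0 TPM) and *Fosl2* (18.3 TPM), which followed it. *Junb* (11.02 TPM), *Maff* (6.22 TPM) and *Fosb* (4.53 TPM) had lower medians there. The lowest *Fos* value, 11.1 TPM, was still below the highest of *Junb* (12.14 TPM) and *Maff* (16.22 TPM). In *Col3a1*+/+ aortas the order below *Mafk* and *Jun* was *Fosl2* (12.8 TPM), *Atf3* (9.71 TPM), *Maff* (7.36 TPM), *Fos*, *Junb* (4.56 TPM) and *Fosb* (2.73 TPM), and each range overlapped that of the next. *Fosl1*, which encodes the FRA-1 protein, was last in both, at medians of 0.05 and 0.065 TPM in *Col3a1*+/G182R and *Col3a1*+/+ aortas.

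The genotypes were compared gene by gene in CPM, the reads of a gene scaled to library size (with TMM factors), with edgeR's quasi-likelihood test over all 15688 genes. All 9 tested members had a log2 fold change above 0, against 50.7% of all genes, and their median was 0.55, against 0.00768 for all genes. By the adjusted p-value (Benjamini-Hochberg, threshold 0.05) edgeR called 0 of the 9, and 0.0191% of all genes were called higher and 0.0191% lower. At an unadjusted p under 0.05, 5 of 9 were higher and 0 lower, against 9.57% and 10.8% of all genes.

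DESeq2 called 2 of the 9 members higher, *Fos* and *Fosl2*, whereas of the genes for which it gave an adjusted p it called 2.22% higher and 2.89% lower. limma-voom called 0 of 9 (0.051% of all genes higher), and limma with library quality weights called 2, *Fosl2* and *Atf3* (1.68% of all genes higher). In 3 of the 9, *Fos*, *Fosl2* and *Atf3*, every *Col3a1*+/G182R library lay above every *Col3a1*+/+ library, and 10.1% of all genes showed such a gap in this direction. The members were chosen with earlier results of these data known, so these counts describe the list and are not independent evidence of its direction. Since whole tissue was sequenced, more cells of a type and more RNA per cell cannot be told apart.

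**Figure D1:**
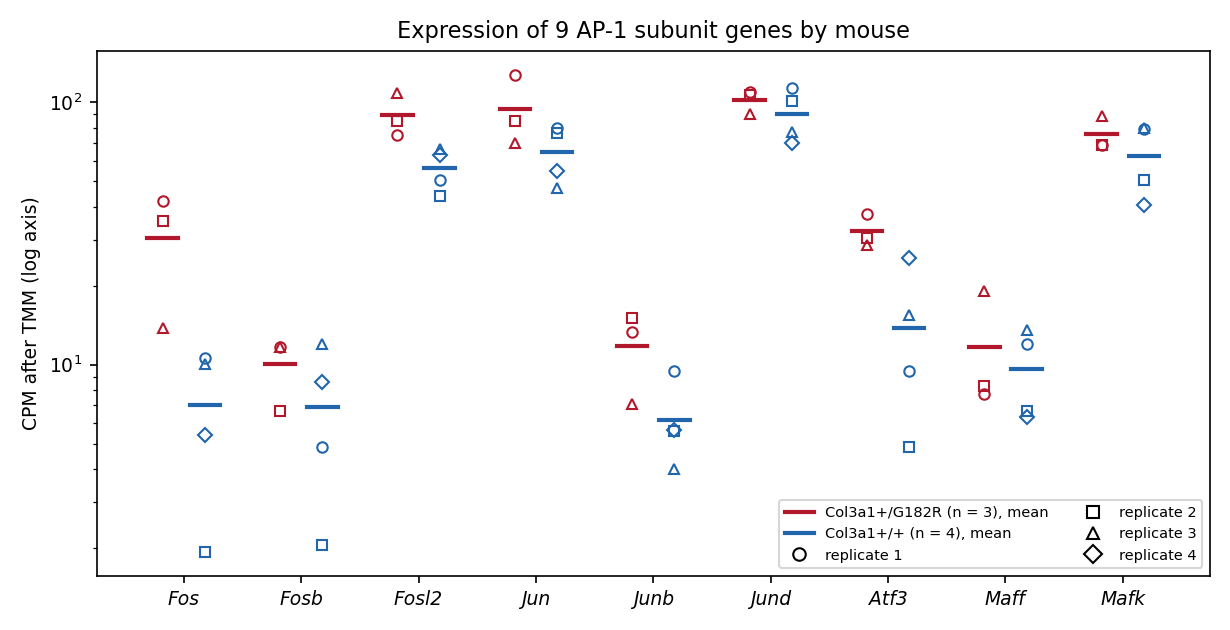
Expression of the 9 tested AP-1 subunit genes in CPM after TMM on a log axis, with 1 symbol per mouse and a bar at the mean of *Col3a1*+/G182R (red, n = 3) and *Col3a1*+/+ (blue, n = 4). The red and blue symbols are apart for *Fos*, *Fosl2* and *Atf3* and overlap for the other 6 genes.

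*Fos* (ENSMUSG00000021250, chromosome 12, 85473890 to 85477273, plus strand, GRCm38) encodes c-FOS, a short-lived partner of JUN. Its level was 41.9, 35.5 and 13.8 CPM in *Col3a1*+/G182R replicates 1, 2 and 3, against 10.7, 1.94, 10.1 and 5.41 CPM in *Col3a1*+/+ replicates 1 to 4. The genotypes did not overlap, but *Col3a1*+/G182R replicate 3 lay much nearer to the highest wild type than to the other mutant mice. The means were 30.4 ± 14.7 CPM in *Col3a1*+/G182R (SD, n = 3) and 7.02 ± 4.13 CPM in *Col3a1*+/+ (SD, n = 4). The difference estimated by edgeR was 4.30-fold. The log2 fold change was 2.11 with an SE of 0.51 and a 95% interval of 0.96 to 3.25. edgeR's adjusted p was 0.149 and that of DESeq2 0.0481.

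The DESeq2 call of *Fos* depended on single libraries. With DESeq2 it was lost without *Col3a1*+/G182R replicate 1 (adjusted p = 0.052), without *Col3a1*+/G182R replicate 2 (0.308), without *Col3a1*+/+ replicate 3 (0.12) and without *Col3a1*+/+ replicate 4 (0.124). Its log2 fold change stayed between 1.80 and 2.44 in edgeR as each library was left out.

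*Fosl2* (ENSMUSG00000029135, chromosome 5, 32135801 to 32157842, plus strand) encodes FRA-2, a longer-lived FOS protein without the strong transactivation domain of c-FOS. It was at 75.2, 85.2 and 108 CPM in *Col3a1*+/G182R aortas, against 50.6, 43.9, 66.4 and 63.1 CPM in *Col3a1*+/+ aortas. Every mutant library was above every wild-type library, and the highest was the mutant library in which *Fos* was lowest. The means of 89.5 ± 16.9 CPM (SD, n = 3) in *Col3a1*+/G182R and 56.0 ± 10.6 CPM (SD, n = 4) in *Col3a1*+/+ differed 1.60-fold, less than for *Fos* but with less spread. The log2 fold change was 0.68 (SE 0.18, 95% interval 0.28 to 1.08), with an adjusted p of 0.158 in edgeR and 0.0298 in DESeq2. The DESeq2 call was lost without *Col3a1*+/G182R replicate 2 (adjusted p = 0.186), *Col3a1*+/G182R replicate 3 (0.293) or *Col3a1*+/+ replicate 2 (0.0655).

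*Fosb* (ENSMUSG00000003545, chromosome 7, 19302696 to 19310051, minus strand) encodes FOSB and a truncated form that is known to persist after repeated stimulation. Its values were 11.7, 6.66 and 11.7 CPM in *Col3a1*+/G182R, against 4.86, 2.05, 11.97 and 8.59 CPM in *Col3a1*+/+. The highest library of all 7 was a wild type, replicate 3, and the genotypes overlapped. A log2 fold change of 0.55 (SE 0.48, 95% interval -0.51 to 1.61) missed the threshold, with an adjusted p of 0.516 in edgeR and 0.505 in DESeq2. The log2 value was 0.25 without *Col3a1*+/+ replicate 2 and 0.95 without *Col3a1*+/+ replicate 3 in edgeR.

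*Fosl1* (ENSMUSG00000024912, chromosome 19, 5447547 to 5455946, plus strand) had expected counts of 3.23, 0 and 1.13 in *Col3a1*+/G182R libraries, against 3.37, 0, 3.21 and 0 in *Col3a1*+/+ libraries. These few reads allow no statement on a difference. The gene overlaps *Ccdc85b* on the opposite strand, and its counts were not whole in 4 of 7 libraries, so some reads were shared out between genes.

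*Jun* (ENSMUSG00000052684, chromosome 4, 95049034 to 95052222, minus strand) encodes c-JUN, the activating partner that JNK kinases phosphorylate. It measured 128, 84.8 and 69.9 CPM in *Col3a1*+/G182R aortas, against 80.0, 76.4, 47.2 and 55.0 CPM in *Col3a1*+/+ aortas. Replicates 1 and 2 of the mutant mice were above all wild types, and replicate 3 lay among them. The log2 fold change was 0.54 (SE 0.24, 95% interval 0.0054 to 1.08), with an adjusted p of 0.242 in edgeR and 0.184 in DESeq2, and it was 0.25 in edgeR without *Col3a1*+/G182R replicate 1. *Jun* overlaps the antisense gene *Junos*, which had 5.23 to 12.3 counts in *Col3a1*+/G182R and 6.18 to 14.1 counts in *Col3a1*+/+ libraries. The kit marks strand, but no source used here says whether the counting did, and *Jun* counts were not whole in all 7 libraries, so reads were shared with another gene.

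*Junb* (ENSMUSG00000052837, chromosome 8, 84974484 to 84978718, minus strand) encodes JUNB, which can restrain c-JUN as well as activate genes of its own. Its level was 13.3, 15.02 and 7.09 CPM in *Col3a1*+/G182R, against 9.50, 5.57, 3.99 and 5.62 CPM in *Col3a1*+/+. Only wild-type replicate 1 reached into the mutant range, where it was above mutant replicate 3. Means were 11.8 ± 4.17 CPM in *Col3a1*+/G182R (SD, n = 3) and 6.17 ± 2.34 CPM in *Col3a1*+/+ (SD, n = 4). An estimated log2 fold change of 0.93 (SE 0.33, 95% interval 0.20 to 1.66) had an adjusted p of 0.181 in edgeR and 0.0818 in DESeq2. Without *Col3a1*+/+ replicate 1 it was 1.22, and DESeq2 then called the gene (adjusted p = 0.0045). In that fit DESeq2 called 891 of all genes higher, against 314 with all 7 libraries.

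*Jund* (ENSMUSG00000071076, chromosome 8, 70698949 to 70700616, plus strand) was at 109, 107 and 90.1 CPM in *Col3a1*+/G182R aortas, against 114, 102, 77.2 and 69.8 CPM in *Col3a1*+/+ aortas. Wild-type replicate 1 was the highest of all, and the ranges overlapped widely. Its log2 fold change was the smallest of the 9 members, 0.17 (SE 0.18, 95% interval -0.23 to 0.58), and the adjusted p was 0.589 in edgeR and 0.623 in DESeq2. The log2 value was 0.0586 without *Col3a1*+/+ replicate 4 and 0.30 without *Col3a1*+/+ replicate 1 in edgeR. The antisense gene *Gm11175*, which overlaps *Jund*, had 29.1, 53.9 and 103 counts in *Col3a1*+/G182R libraries, against 0, 0, 0 and 4.48 counts in *Col3a1*+/+ libraries. It was singled out after its values were seen, with an adjusted p of 0.0875 in edgeR and 0.0231 in DESeq2. *Jund* counts were not whole in 4 of 7 libraries, so part of its reads was shared with another gene, and the split between *Jund* and *Gm11175* is uncertain.

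*Atf3* (ENSMUSG00000026628, chromosome 1, 191170296 to 191218039, minus strand) encodes a stress-induced protein that pairs with JUN proteins or represses as a homodimer. It was at 37.6, 30.6 and 28.6 CPM in *Col3a1*+/G182R, against 9.50, 4.87, 15.5 and 25.4 CPM in *Col3a1*+/+. The mutant libraries were close together and above all wild types, with wild-type replicate 4 just below them. Means were 32.2 ± 4.73 CPM in *Col3a1*+/G182R (SD, n = 3) and 13.8 ± 8.89 CPM in *Col3a1*+/+ (SD, n = 4). The difference estimated by edgeR was 2.34-fold, a log2 fold change of 1.23 (SE 0.42, 95% interval 0.29 to 2.17). The adjusted p was 0.178 in edgeR and 0.0655 in DESeq2. Without *Col3a1*+/+ replicate 4 the log2 fold change was 1.69, with an adjusted p of 0.0956 in edgeR and 2.84e-05 in DESeq2.

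Both small MAF genes overlapped between genotypes. *Maff* (ENSMUSG00000042622, chromosome 15, 79346621 to 79359076, plus strand) was at 7.72, 8.32 and 19.1 CPM in *Col3a1*+/G182R aortas, against 12.04, 6.68, 13.5 and 6.29 CPM in *Col3a1*+/+ aortas. A single mutant library, replicate 3, stood above the rest. The log2 fold change was 0.27 (SE 0.38, 95% interval -0.57 to 1.12, adjusted p = 0.696 in edgeR), and its sign turned to -0.28 without that library. *Mafk* (ENSMUSG00000018143, chromosome 5, 139791513 to 139802653, plus strand) measured 69.0, 69.0 and 88.7 CPM in *Col3a1*+/G182R, against 78.9, 50.4, 79.8 and 40.7 CPM in *Col3a1*+/+. Mutant replicate 3 was again the highest, and wild-type replicates 1 and 3 lay above the other mutant mice. Its log2 fold change was 0.27 (SE 0.24, 95% interval -0.25 to 0.80), with an adjusted p of 0.516 in edgeR, and it was 0.10 without *Col3a1*+/+ replicate 4 and 0.41 without *Col3a1*+/+ replicate 3.

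**Figure D2:**
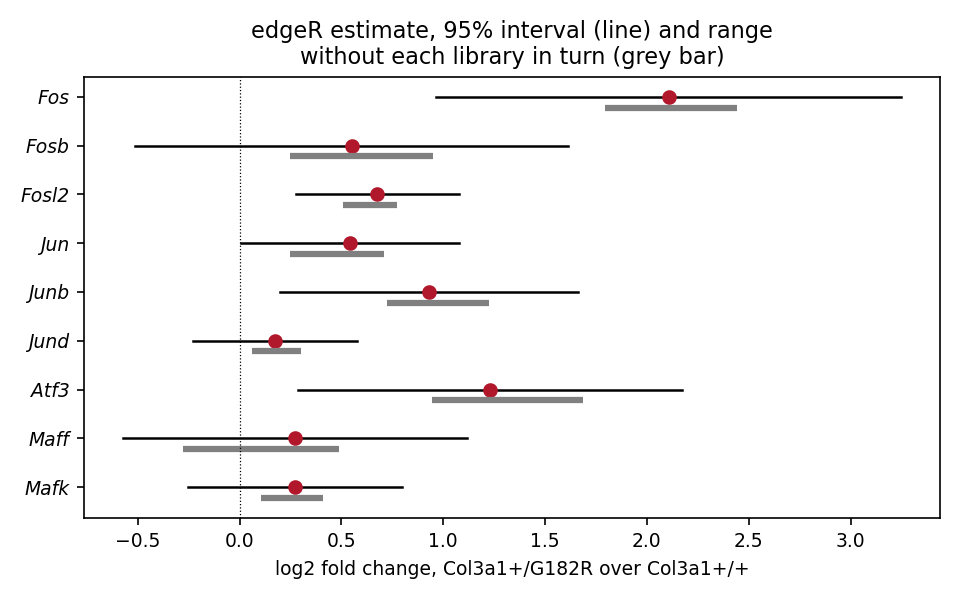
Estimates of edgeR for each of the 9 tested genes as *Col3a1*+/G182R over *Col3a1*+/+ on the log2 scale (point), with the 95% interval (line) and the range of the estimate as each library was left out (grey bar). All points lie above 0, the interval of 5 genes (*Fos*, *Fosl2*, *Jun*, *Junb* and *Atf3*) does too, and only the grey bar of *Maff* crosses it.

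Summed over the 4 FOS family genes, the level was 53.7, 47.3 and 41.99 TPM in *Col3a1*+/G182R libraries, against 21.7, 11.3, 25.3 and 21.6 TPM in *Col3a1*+/+ libraries, and the genotypes did not overlap. *Fos* and *Fosl2*, each without overlap by itself, made up most of this sum in every library. The gap in the sum is therefore not a further result. *Fosb* overlapped between genotypes and *Fosl1* was near 0. The 3 JUN genes summed to 168, 144 and 130 TPM in *Col3a1*+/G182R, against 155, 125, 88.5 and 93.7 TPM in *Col3a1*+/+, and overlapped. The ratio of the FOS sum to the JUN sum was nearly the same in the mutant mice, at 0.32, 0.328 and 0.324, while it ran over 0.14, 0.0902, 0.286 and 0.231 in the wild types. JUN transcripts thus outnumbered FOS transcripts in all 7 libraries. No test was made of these sums.

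The make-up of the FOS family differed among the mutant mice. *Fos* gave 60.4 and 56.0% of the FOS sum in *Col3a1*+/G182R replicates 1 and 2 and 26.4% in replicate 3, against 11.5 to 36.3% in the *Col3a1*+/+ libraries. *Fosl2* was the main FOS transcript in mutant replicate 3, at 61.6% of the sum. It gave 30.7 and 38.7% in mutant replicates 1 and 2, and 54.0 to 81.5% in the wild types. In mutant replicate 3 the FOS total was therefore above the wild-type range and the shares of *Fos* and *Fosl2* within it. *Jund* gave 58.9 to 68.4% of the JUN sum in *Col3a1*+/G182R and 67.9 to 73.8% in *Col3a1*+/+.

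**Figure D3:**
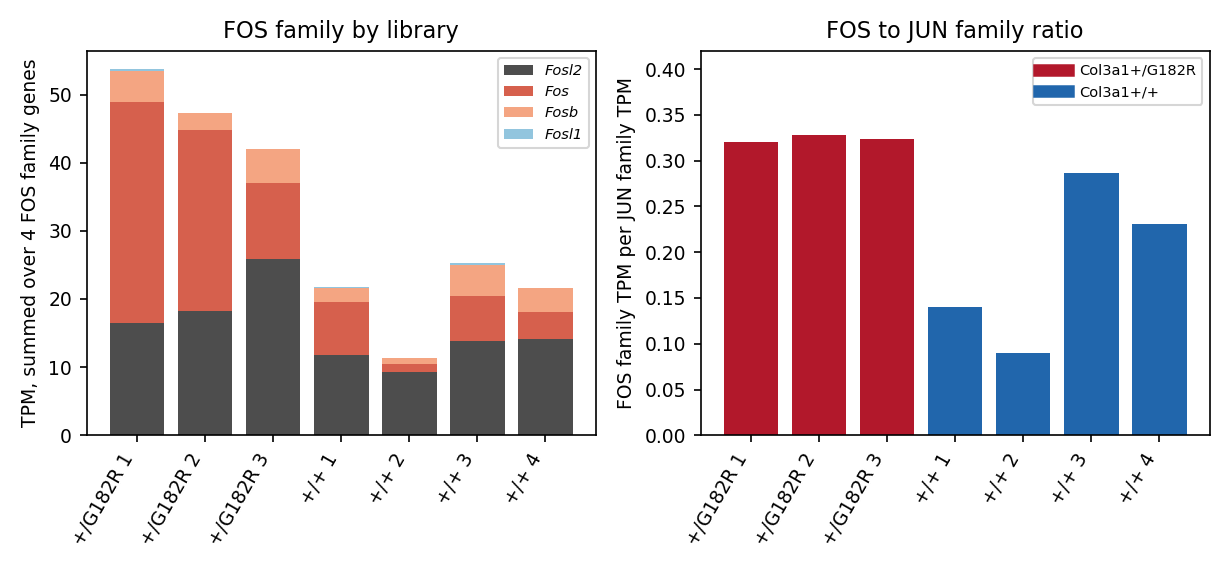
Left, TPM of the 4 FOS family genes stacked for each library, and right, the FOS sum over the JUN sum in TPM for the same libraries, with the 3 *Col3a1*+/G182R mice before the 4 *Col3a1*+/+ mice. FOS totals are 41.99 to 53.7 TPM in *Col3a1*+/G182R and 11.3 to 25.3 TPM in *Col3a1*+/+, and *Fosl2* is the largest segment in mutant replicate 3 and in all 4 wild types.

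The estimated mix of *Fos* transcripts varied between libraries. The files give for each gene the mean transcript length weighted by RSEM's isoform shares, and this was 1930, 1945 and 2012 bases for *Fos* in *Col3a1*+/G182R libraries, against 2108, 2108, 2108 and 2023 bases in *Col3a1*+/+ libraries. The mutant lengths were all below the wild-type lengths, although mutant replicate 3 and wild-type replicate 4 lay close together. Of the 6 tested members with a length that varied, this was so for *Fos* alone, and 7.43% of the 12450 tested genes with a varying length had all mutant lengths below all wild-type lengths. A value of 2108 is the full length of the coding transcript *Fos-201*, of 4 exons. The other 3 annotated *Fos* transcripts are non-coding, 631, 795 and 834 bases long, and hold 24, 244 and 105 bases of the introns of *Fos-201*.

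From these lengths, the short forms made up 12.1 to 14.0%, 11 to 12.8% and 6.49 to 7.53% of *Fos* transcripts in *Col3a1*+/G182R replicates 1 to 3. The bounds are for the shortest and the longest of the 3 forms. The share was 0 in *Col3a1*+/+ replicates 1 to 3 and 5.76 to 6.67% in replicate 4, whose bounds overlap those of mutant replicate 3. These are model estimates without an interval. They rest on 934, 831 and 263 *Fos* counts in *Col3a1*+/G182R, against 230, 33, 167 and 80 counts in *Col3a1*+/+ libraries. The depth of *Fos* reads moved with genotype, and its part in the shares was not tested.

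**Figure D4:**
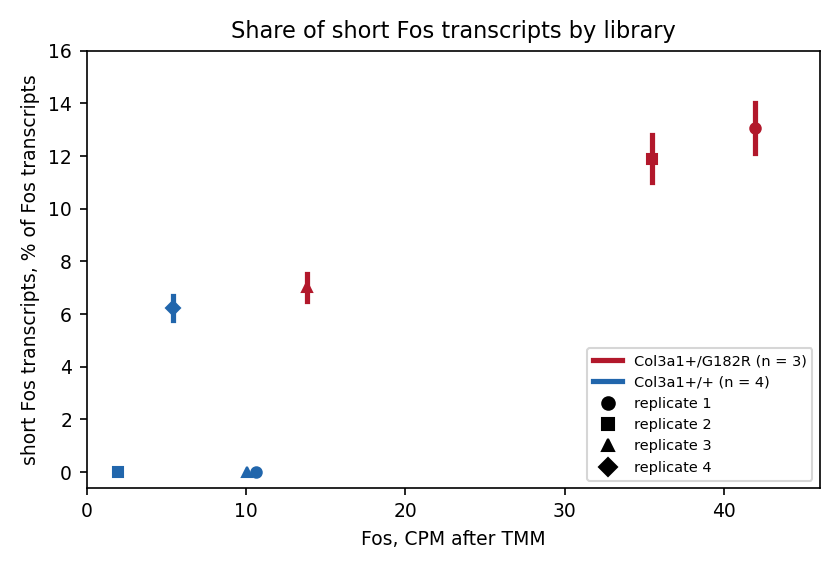
Estimated share of short, non-coding *Fos* transcripts (percent of *Fos* transcripts, bar from the lowest to the highest value the length allows) against *Fos* level in CPM, with 1 symbol per mouse. The 3 *Col3a1*+/G182R mice have shares of 6.49 to 14.0%, and of the *Col3a1*+/+ mice only replicate 4 is above 0, at 5.76 to 6.67%, which overlaps mutant replicate 3.

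Within a genotype the members did not move as 1 group from mouse to mouse. Log2 CPM deviations from the genotype means were correlated between members over the 7 libraries, as a description, since values of 1 library share its depth and scaling. Of 36 pairs, 20 had an r above 0, with a median of 0.0995. The highest was *Maff* with *Mafk* (0.876), both of which were highest in mutant replicate 3. *Fosb* followed *Atf3* (0.844) and *Fosl2* (0.769), and *Jun* followed *Jund* (0.801) and *Junb* (0.727). The lowest was *Fosl2* with *Jun* (-0.917). *Fosl2* was ordered replicate 3, 2, 1 from high to low in the mutant mice, and *Jun* in the opposite order. *Junb* also followed *Jund* (0.728) and *Atf3* followed *Fosl2* (0.623). Genes outside the list whose deviations were most like those of *Fos* were *Ccdc65* (r = 0.992), *Larp6* (0.976), *Zfp428* (0.976), *Slc9b2* (0.971) and *Dpp3* (0.965). This set was not stable, as 0 to 2 of the 5 were found again when a library was left out.

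Other genes of the AP-1 pathway were taken as lists and are described by the same counts. Of all genes, 50.7% had a log2 fold change above 0. At an unadjusted p under 0.05 in edgeR, 9.57% of all genes were higher and 10.8% lower. DESeq2 called 2.22% higher and 2.89% lower of the genes for which it gave an adjusted p. Of the basic leucine zipper partners, 19 of 21 were tested. Among these 19, 12 had a log2 fold change above 0 and the median was 0.31. edgeR called 0, with 6 higher and 0 lower at an unadjusted p under 0.05, and DESeq2 called 2 higher. *Bach1*, a repressor that pairs with small MAF proteins, was at 27.7 ± 2.44 CPM in *Col3a1*+/G182R (SD, n = 3) and 17.96 ± 2.74 CPM in *Col3a1*+/+ aortas (SD, n = 4). Its log2 fold change was 0.62 (SE 0.15), with an adjusted p of 0.146 in edgeR and 0.0158 in DESeq2. *Nfe2l2*, which encodes NRF2, the activator that uses the same MAF partners, had a log2 fold change of 0.48 (SE 0.13, adjusted p = 0.158 in edgeR and 0.034 in DESeq2). *Atf2*, a JUN partner, had 0.32 (SE 0.12, adjusted p = 0.196 in edgeR).

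Of the kinases and SRF factors upstream of *Fos* and *Jun*, 11 of 21 tested genes had a log2 fold change above 0, and the median was 0.0157. edgeR called 0, and DESeq2 called 1 lower, against 2.89% of the genes with an adjusted p. At an unadjusted p under 0.05 in edgeR, 3 of 21 were higher and 2 lower. These counts were near the shares of all genes, 9.57% and 10.8%. *Mapk7*, the gene of ERK5, was at 15.9 ± 1.24 CPM in *Col3a1*+/G182R (SD, n = 3) and 24.4 ± 2.19 CPM in *Col3a1*+/+ (SD, n = 4). That log2 fold change was -0.62 (SE 0.13), with an adjusted p of 0.136 in edgeR and 0.00343 in DESeq2. *Srf*, whose protein binds the serum response element of the *Fos* promoter, had a log2 fold change of 0.67 (SE 0.23, adjusted p = 0.18 in edgeR). *Elk4*, an SRF cofactor gene, had -0.43 (SE 0.17, adjusted p = 0.215 in edgeR). These are mRNA levels, and kinase activity was not measured in these libraries.

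Of 23 genes known as AP-1 targets, 20 were tested, 15 had a log2 fold change above 0 and the median was 0.13. edgeR called 0, and DESeq2 called 2 higher, against 2.22% of the genes with an adjusted p. At an unadjusted p under 0.05 in edgeR, 4 were higher and 0 lower, against 9.57% and 10.8% of all genes. *Ptgs2*, the gene of cyclooxygenase-2, was at 5.64 ± 1.78 CPM in *Col3a1*+/G182R (SD, n = 3) and 1.78 ± 0.564 CPM in *Col3a1*+/+ (SD, n = 4). Its log2 fold change was 1.65, with an adjusted p of 0.119 in edgeR and 6.74e-04 in DESeq2. *Edn1*, which encodes the vasoconstrictor endothelin-1, was at 20.98 ± 2.58 CPM in *Col3a1*+/G182R (SD, n = 3) and 9.29 ± 3.41 CPM in *Col3a1*+/+ (SD, n = 4), a log2 fold change of 1.18 (SE 0.25, adjusted p = 0.138 in edgeR and 0.00327 in DESeq2). *Mmp10*, a matrix metalloproteinase gene, was at 0 in every library.

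NRF2 and small MAF targets gave 9 of 12 tested genes above 0 and a median log2 fold change of 0.19, with 0 calls in edgeR and DESeq2. At an unadjusted p under 0.05 in edgeR 1 of the 12 was higher, near the 9.57% of all genes. That gene was *Me1*, the NADPH-producing malic enzyme, at a log2 fold change of 0.91 (adjusted p = 0.187 in edgeR). It was at 173, 215 and 531 CPM in *Col3a1*+/G182R, so replicate 3 again stood above the others, against 136 to 184 CPM in *Col3a1*+/+. *Gclm* and *Prdx1*, of glutathione synthesis and peroxide removal, had 0.36 and 0.26 (adjusted p = 0.338 and 0.342 in edgeR).

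The 7 factors that bind AU-rich elements of short-lived mRNAs such as that of *Fos* had a median log2 fold change of -0.04, with 3 of 7 above 0. edgeR and DESeq2 called 0. At an unadjusted p under 0.05 in edgeR 1 of 7 genes was lower, near the 10.8% of all genes. This was *Tia1*, a translational silencer, at 38.8 to 45.7 CPM in *Col3a1*+/G182R and 46.6 to 82.8 CPM in *Col3a1*+/+, with an adjusted p of 0.168 in edgeR. *Zfp36*, whose protein tristetraprolin promotes mRNA decay, had a log2 fold change of 0.26, and its relative *Zfp36l1* had 0.20.

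Among 21 tested immediate early genes outside AP-1, 20 had a log2 fold change above 0, with a median of 0.40, below that of the 9 AP-1 members. edgeR called 1 gene, *Klf6*, against 0.0191% of all genes called higher. The number called higher by DESeq2 was 4, against 2.22% of the genes with an adjusted p. At an unadjusted p under 0.05 in edgeR, 6 were higher and 0 lower, against 9.57% and 10.8% of all genes. *Klf6*, a zinc finger factor of the injury response, rose to 190, 150 and 200.5 CPM in *Col3a1*+/G182R aortas, against 77.3, 87.2, 88.6 and 70.7 CPM in *Col3a1*+/+ aortas. Its log2 fold change was 1.15 (SE 0.14, adjusted p = 0.0373 in edgeR). The genotypes did not overlap, and DESeq2's adjusted p was 5.34e-10. In edgeR the log2 fold change was 1.06 to 1.27 as each library was left out. The edgeR call was lost without any 1 of the 3 *Col3a1*+/G182R libraries or *Col3a1*+/+ replicate 2 or 3 (adjusted p = 0.0812 to 0.171 in edgeR), and it held in DESeq2 without each of the 7 libraries (highest adjusted p 1.01e-05). *Ier5* (0.65, adjusted p = 0.152 in edgeR) and *Klf4* (0.61, adjusted p = 0.158) came next by p. *Egr4* was at 0 in every library.

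**Figure D5:**
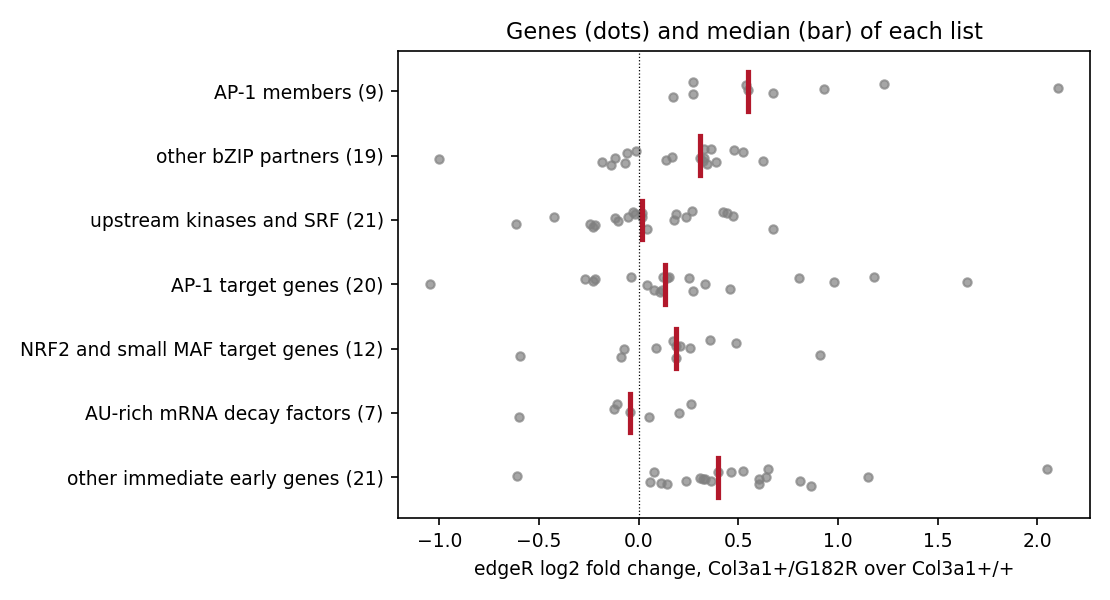
Difference between *Col3a1*+/G182R and *Col3a1*+/+ on the log2 scale in edgeR for each tested gene (dot) of the AP-1 members and of 6 pathway lists, with the list's median as a bar and the number of tested genes in brackets. Medians are 0.55 for the AP-1 members, 0.40 for the other immediate early genes and 0.31 for the other bZIP partners, and from -0.04 to 0.19 for the other 4 lists.

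Some facts of the libraries stand beside these values. Total counts were 18820015 to 23953746 in *Col3a1*+/G182R and 13693861 to 21634680 in *Col3a1*+/+ libraries. *Col3a1* itself, whose knock-in changes a codon and not the number of copies, was at 4107, 4216 and 5208 CPM in *Col3a1*+/G182R, against 5483, 3965, 3578 and 2831 CPM in *Col3a1*+/+, with an adjusted p of 0.633 in edgeR. The first principal component (43.3% of variance) parted the genotypes, at -25.1, -33 and -35.2 in *Col3a1*+/G182R replicates 1 to 3. *Col3a1*+/+ replicates 1 to 4 were at -11.2, 7.72, 31.2 and 65.6, so replicate 1 lay nearest to the mutant libraries and replicate 4 farthest. In the wild types it rose as the total count fell, from 21634680 in replicate 1 to 13693861 in replicate 4. The part of depth in it was not tested. Summed over 7 smooth muscle markers, the level was 31750 to 36890 CPM in *Col3a1*+/G182R and 26210 to 39680 CPM in *Col3a1*+/+, with none of the 7 at 0. The sum is carried by abundant contractile genes. Of the 7 markers, 2 had a log2 fold change above 0, against 50.7% of all genes, and 5 were below 0. Their median was -0.0458. The 2 above 0 were *Acta2*, at 0.10, and *Myocd*, the gene of an SRF cofactor. *Myocd* had a log2 fold change of 1.48 (SE 0.29, adjusted p = 0.119 in edgeR and 4.8e-04 in DESeq2).

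Marker lists of other cell types were summed as well, without a test of the sums. All 8 macrophage markers had a log2 fold change above 0, against 50.7% of all genes. Of these, 6 were higher at an unadjusted p under 0.05 in edgeR, against 9.57% of all genes. They summed to 166, 237 and 427 CPM in *Col3a1*+/G182R, against 131 to 196 CPM in *Col3a1*+/+. All 7 adventitial fibroblast, all 5 lymphatic endothelium and all 5 red blood cell markers were above 0 too. At an unadjusted p under 0.05 in edgeR, 4, 1 and 2 of these were higher, in that order. The sums of these lists, like those of the macrophage markers, overlapped between genotypes. Heart muscle markers summed to 11.4 to 16.5 CPM in *Col3a1*+/G182R and to 21.8 to 62.4 CPM in *Col3a1*+/+, without overlap. Skeletal muscle markers summed to 4.99 to 7.41 CPM in *Col3a1*+/G182R and 8.40 to 9.54 CPM in *Col3a1*+/+, also without overlap. All 4 tested heart muscle markers and 1 of 3 tested skeletal muscle markers were lower at an unadjusted p under 0.05 in edgeR. Transcripts retained in the nucleus summed to 892 to 1201 CPM in *Col3a1*+/G182R and to 1570 to 2645 CPM in *Col3a1*+/+. Of these, 0 of 5 tested genes were above 0. At an unadjusted p under 0.05 in edgeR 3 were lower, against 10.8% of all genes. The difference between transcript length and effective length, which reflects fragment size, was 121 to 131 bases in *Col3a1*+/G182R and 114 to 120 bases in *Col3a1*+/+, with no overlap. The part of these differences in the AP-1 values was not tested.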

How the data were processed

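Poly(A) RNA from aortas was sequenced paired-end with a stranded kit, with 1 library per mouse. The expected counts were deposited by the authors as RSEM 1.3.1 estimates after alignment with STAR 2.7.6a to GRCm38, per the submitters' processing notes. The methods of the paper name another pipeline, with an older STAR release and featureCounts, so the values analysed here are not the counts it describes. The TPM values and lengths deposited by the authors come from the same files. Reads matching several genes are shared out in expected counts, which left 24.5 to 27.6% of the detected genes with a fractional value. The annotation release is not given in the sources used here, and 55227 of 55487 identifiers were found in GENCODE M21, which gave names and places. Promoter sequences are from RefSeq (GRCm38.p6).

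Expected counts were rounded, filtered (filterByExpr, minimum count 10), scaled by TMM and tested with edgeR 4.0.16 in R 4.3.3, two-sided, with genotype as the only term, on all 7 libraries. p-values were adjusted by Benjamini-Hochberg over all genes. They measure the spread between these mice only. DESeq2 1.42.0 and limma 3.58.1 were run beside it. Further alternatives were RLE factors, log2(TPM + 1), no filter, a minimum of 10 counts for each library, the replicate number as a block, an offset for effective length, and each library left out. Leaving out each library in DESeq2 was added after seeing the data. The script was tested on simulated data.

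The members, lists and tests were chosen with earlier results of these data known. Named genes are all 10 members, up to 3 genes with the smallest p of each pathway list (1 of these genes is not reported here), and the 5 genes most like *Fos* with a mean of at least 1 CPM. Correlations used log2 CPM with a prior count of 2. Same-numbered mice deviated together with r of only -0.0469, 0.0153 and 0.0777, while pairs of unlike number ran from -0.178 to 0.177. No pairing of mice by number was seen, though so few values cannot exclude it. No batch is named.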

Additional observations from a re-analysis of the deposited data

Results flagged for a closer look

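The weighted length of *Fos* in *Col3a1*+/+ replicate 4 was 2023 bases, with the other 3 *Col3a1*+/+ libraries all at 2108 bases. It was listed by Dixon's test for 4 samples (critical value 0.829). Since the other 3 values are tied at the full length of *Fos-201*, the test would list any lower value, however near, so it says nothing of how far this library lies from them. In all, 15 sets of values were looked at in this way, and chance alone marks about 1 in 20 sets.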

How the results depend on the processing

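edgeR called 0 of the 9 members. The number was 2 with DESeq2 (2.22% of genes with an adjusted p called higher) and 2 with library quality weights (1.68% of all genes). Without a low-count filter edgeR called 3 of 10 members, where 186 of all 27619 genes were called higher. The 3 were *Fos* (adjusted p = 0.00408), *Fosl2* (0.0417) and *Atf3* (0.0407). The number of members called was 0 with each library left out in turn in edgeR, and 0 to 3 with DESeq2. In edgeR 2 to 5 of the 9 were then at an unadjusted p under 0.05. Of all genes, in both directions together, the fewest were 1830 of 16056, without *Col3a1*+/G182R replicate 2. The most were 4129 of 15471, without *Col3a1*+/+ replicate 1. Over 23 alternatives the direction of each member held, except for *Maff*, at -0.0803 with library quality weights, -0.28 to 0.49 with a library left out in edgeR (lowest without *Col3a1*+/G182R replicate 3) and -0.27 in DESeq2 without that library. The median correlation between members was -0.112 to 0.143 with a library left out, and below 0 without *Col3a1*+/+ replicate 1 (-0.0315) or 2 (-0.112). Of all genes, edgeR called 6, with 3 higher and 3 lower. It called 353 without a filter, 14 with the effective length offset, 0 where each library had to hold 10 counts (3046 at an unadjusted p under 0.05), and 0 to 183 with a library left out, the highest without *Col3a1*+/+ replicate 1. DESeq2 called 723, library quality weights 546 and limma-voom 11, and DESeq2 498, 120 and 124 without *Col3a1*+/G182R replicates 1 to 3 and 1860, 716, 168 and 690 without *Col3a1*+/+ replicates 1 to 4. With the replicate block, edgeR called 46 genes and 0 members, although no pairing of mice by number was seen. The cause of these differences was not tested. In CPM in place of TPM, 3 of 10 members of the *Col3a1*+/G182R order and 6 of 10 of the *Col3a1*+/+ order kept their place. With 3 and 4 mice the intervals of the fold changes were wide, and a difference as small as that of *Jund* could not be told from 0.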
